A study of Homo sapiens with 6 samples.

Results

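Keratins are the intermediate filament proteins of epithelial cells. A type I keratin, which is acidic, pairs with a type II keratin, which is neutral or basic, and the pairs assemble into filaments that carry mechanical load between desmosomes and hemidesmosomes. Which keratins a cell makes tells what kind of epithelium it is: KRT5 with KRT14 in the basal layer of stratified epithelia, KRT1 with KRT10 or KRT4 with KRT13 in the layers above it, KRT8 with KRT18 in simple epithelia, KRT6 isoforms with KRT16 and KRT17 in wounded or activated epidermis and in moist oral mucosa, and a separate set in hair.

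The keratin genes described here are all protein-coding genes of GENCODE 29 whose symbol is KRT, a number and at most 1 letter. There are 55 of them among the 58735 genes of the deposited table, 29 of type I and 26 of type II. The rule uses names only and no measured value, but it was set with earlier results of these data known. By the site where they are best known, 3 are basal, 10 suprabasal, 5 wound-associated, 5 simple, 26 belong to hair and its sheaths, and 6 were put in none of these classes. They form a pair of gene clusters: 28 lie on chromosome 17 between 40654665 and 41624842 and 27 on chromosome 12 between 52168996 and 52952901 (GENCODE 29 spans, GRCh38). All of the former are type I, and the single type I gene on chromosome 12 is KRT18, next to KRT8.

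RNA came from HOK-16B, a line of human oral keratinocytes immortalized with human papillomavirus type 16, as 3 libraries of cells given cannabidiol (CBD) and 3 of cells given the vehicle. CBD is a cannabinoid that does not cause the intoxication known from cannabis. According to the design text all cells were stimulated to a state of inflammation after the pretreatment, and the stimulus, dose and times are not named in the labels. Both arms are thus stimulated cells of 1 immortalized line, with no unstimulated arm analysed here. The free-text description counts the line name upward from sample to sample, whereas the cell line tag is HOK-16B throughout, and the tag was used. The labels leave it unsaid whether each replicate was grown apart. The p-values hence measure only the spread between these libraries, which may be technical. In bulk RNA such as this, fewer cells of a kind and less RNA per cell cannot be told apart.

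Values are FPKM, fragments scaled to the exon length of the gene and to the counted fragments of the library, and 18213784 to 22158614 fragments per library stood behind them. Vehicle replicate 1 stood apart from the other libraries, with a first principal component score of -25.1 against -9.36 and 0.74 in the other vehicle libraries and 10.3 to 12.7 with CBD. Averaged over fragments, transcript GC content lay between 49.6% and 50.3% with vehicle, lowest in replicate 1, and between 50.7% and 50.8% with CBD. All 10 keratinocyte markers, such as TP63 and DSG3, were above a mean of 1 FPKM. They summed to 881 to 899 FPKM with vehicle and 926 to 939 FPKM with CBD. Of the markers of other cell types, the 8 fibroblast genes summed to 7.40 to 8.14 FPKM with vehicle and 9.31 to 9.41 FPKM with CBD, nearly all of it COL1A1. The 6 melanocyte genes summed to 1.06 to 1.58 and 1.55 to 1.69 FPKM, with the defining gene TYR at 0 fragments in every library. Leukocyte, endothelial and Merkel cell markers each summed to at most 0.212 FPKM.

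Several keratin genes are close copies of each other, which bears on how far their values can be told apart, so the coding stretches at issue are shown first. KRT6A, KRT6B and KRT6C have 1692 coding bases each and are 97.5% to 98.5% identical over them. The 90 bases in which they differ most are printed below in coding direction, from coding base 658 to 747, on the minus strand (GENCODE 29 on GRCh38) at chr12:52491530-52491619 for KRT6A, chr12:52450414-52450503 for KRT6B and chr12:52472074-52472163 for KRT6C. Each stretch lies inside 1 exon, and capitals mark bases that differ from KRT6A, 10 in KRT6B and 6 in KRT6C.
KRT6A: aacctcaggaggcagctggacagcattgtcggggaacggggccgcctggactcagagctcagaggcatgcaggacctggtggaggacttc
KRT6B: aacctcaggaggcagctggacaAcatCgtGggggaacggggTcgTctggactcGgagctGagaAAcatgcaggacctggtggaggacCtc
KRT6C: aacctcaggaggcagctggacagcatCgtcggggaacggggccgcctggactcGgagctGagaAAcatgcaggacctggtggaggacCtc

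Among type I keratins the most alike 90 bases of KRT14, KRT16, KRT17, KRT15 and KRT19 show the opposite end of the range. They start at coding base 352 of KRT14 and lie on the minus strand (same build) at chr17:41586394-41586483 for KRT14, chr17:41612242-41612331 for KRT16, chr17:41624162-41624251 for KRT17, chr17:41518417-41518506 for KRT15 and chr17:41527912-41528001 for KRT19, each inside 1 exon. Capitals mark bases that differ from KRT14.
KRT14: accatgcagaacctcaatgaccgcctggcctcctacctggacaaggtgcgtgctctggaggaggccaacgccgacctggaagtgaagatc
KRT16: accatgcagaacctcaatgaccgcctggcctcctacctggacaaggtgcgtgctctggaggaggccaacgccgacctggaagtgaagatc
KRT17: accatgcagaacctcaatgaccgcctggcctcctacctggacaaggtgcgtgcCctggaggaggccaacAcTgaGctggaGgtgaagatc
KRT15: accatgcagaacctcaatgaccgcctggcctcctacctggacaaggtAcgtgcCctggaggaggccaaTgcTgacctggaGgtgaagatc
KRT19: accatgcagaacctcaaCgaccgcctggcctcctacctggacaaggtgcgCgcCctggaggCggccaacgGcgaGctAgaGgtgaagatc

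KRT16 shows 0 differences from KRT14 in that stretch, KRT17 and KRT15 show 5 each and KRT19 shows 8. Over the whole coding sequence the identity to KRT14 was 88.7% for KRT16, 85.2% for KRT17, 74.98% for KRT19 and 74.8% for KRT15. As a measure of what a read can tell apart, the share of all 100-base words of a gene's transcripts that also occur in another annotated gene was 24.7% for KRT6C, 24.6% for KRT6B and 13.6% for KRT6A. It was 8.39% for KRT18, 5.51% for KRT8, 4.69% for KRT16, 4.26% for KRT7 and 4.08% for KRT14. KRT5 and KRT17 had 0.723% and 0.147%, and KRT19, KRT15, KRT10 and KRT9 had 0%. The length of the reads and the treatment of reads with several matches are not given in the sources used here, so values of the KRT6 genes are uncertain as to how reads were divided among the copies.

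Keratin transcripts were among the most abundant in these cells, and a few genes made up nearly all of them. The 55 genes together took 3.24% to 3.82% of the fragments in genes with vehicle and 3.98% to 4.14% with CBD, so the groups did not overlap. Vehicle replicate 1 was the lowest library. Summed over the genes, keratin FPKM came to 9305, 10919 and 10526 with vehicle and to 11627, 11903 and 11366 with CBD (replicates 1, 2 and 3, the order used throughout). KRT5, KRT14, KRT17 and KRT6A alone supplied 96.0% to 96.3% of that sum in each library. Between CBD and vehicle they differed by 0.20, 0.28, 0.18 and -0.069 on the log2(FPKM + 1) scale. With the trend in GC content removed, as set out below, these values were 0.12, 0.13, 0.00048 and -0.13. KRT5 ranked between the 5th and 7th most abundant of all genes by FPKM, KRT14 between the 6th and 8th, KRT17 the 9th or 10th, and KRT6A between the 14th and 18th.

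Of the 55 genes, 14 had a mean of at least 1 FPKM over the 6 libraries and entered the comparison, which was fitted on log2(FPKM + 1) across 12517 genes with limma. Adjusted over all of those by the Benjamini-Hochberg method at 0.05, 1 keratin was higher with CBD, KRT19, and 0 were lower, while 0.256% of all tested genes were called higher and 0.0959% lower. At an unadjusted p under 0.05, 7 keratins were higher and 2 lower, against 15.4% and 16% of all tested genes. The CBD values lay wholly above the vehicle values in 7 keratins and wholly below in 3, against 18.7% and 21.9% of all tested genes. The median difference of the 14 was 0.17 on the log2 scale, against -0.013 over all tested genes.

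Vehicle replicate 1 had the lowest value of all 6 libraries in KRT5, KRT14, KRT17, KRT16, KRT15, KRT8 and KRT9. Without it the difference was 0.12 in place of 0.20 for KRT5, 0.085 in place of 0.18 for KRT17, 0.11 in place of 0.17 for KRT8 and 0.055 in place of 0.16 for KRT9. KRT14, KRT16 and KRT15 then stood at 0.21, 0.30 and 0.66, and KRT19, in which that library was not low, at 0.64. The direction of each of the 14 was the same without it.

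**Figure D1:**
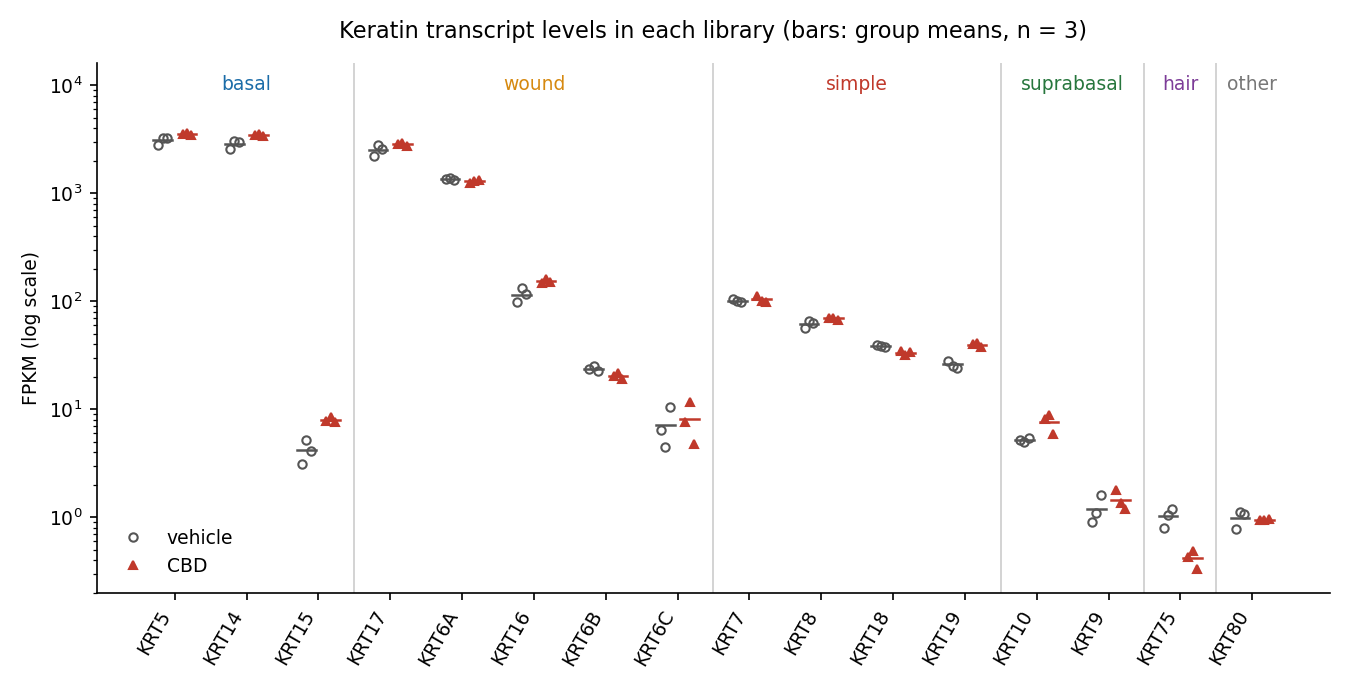
FPKM (log scale) of the 14 tested keratin genes and of KRT75 and KRT80, which lay just below the tested level, in each vehicle library (open circles) and each CBD library (triangles), grouped by class, with horizontal bars at the group means (n = 3). KRT5, KRT14, KRT17 and KRT6A lie at 1241 FPKM or more in every library, and the groups are apart in KRT19, KRT15 and KRT75.

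All 3 basal keratins were higher in each CBD library than in any vehicle library, as were 18.7% of all tested genes, with no call at an adjusted p under 0.05. KRT5, the type II keratin of basal cells, had 2777, 3275 and 3259.5 FPKM with vehicle and 3552, 3649 and 3467 FPKM with CBD (replicates 1 to 3), or 3104 ± 283 and 3556 ± 91.0 (SD, n = 3). Vehicle replicate 1 was the lowest library. The fitted difference was 0.20 ± 0.082 (SE) on the log2(FPKM + 1) scale, with a limma adjusted p of 0.150.

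KRT14, its type I partner, had 2575, 3081 and 2962 FPKM with vehicle and 3503, 3558 and 3405 with CBD. Again vehicle replicate 1 was lowest and the groups did not overlap. The difference was 0.28 ± 0.081 (limma adjusted p = 0.0855).

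KRT15, a type I keratin of basal cells that is often used as a marker of epithelial stem and progenitor cells, was far less abundant and had the largest difference of the 14. It stood at 3.13, 5.25 and 4.12 FPKM with vehicle and at 7.78, 8.44 and 7.57 FPKM with CBD, so the CBD mean was 1.90 times the vehicle mean. Every CBD library exceeded every vehicle library, and vehicle replicates spread more widely (SD 1.06) than CBD replicates (SD 0.451). The difference was 0.81 ± 0.14, with a 95% interval from 0.47 to 1.14 and a limma adjusted p of 0.0553, just short of the threshold. The fragments behind it numbered 506, 815 and 571 with vehicle and 1312, 1380 and 1104 with CBD. FPKM of KRT15 and KRT8 were divided by exon lengths of 7069 and 6881 bases in the annotation, well over their coding lengths of 1368 and 1533 bases, so their level relative to other keratins depends on which transcripts the cells make.

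Simple-epithelium keratins lay on both sides of 0. KRT19 rose with CBD, KRT18 lay lower, KRT8 lay higher and KRT7 overlapped between the groups, and KRT20 had 0 fragments in every library. KRT19, the shortest of these keratins with 400 codons and lacking the tail domain of the others, is a type I keratin of simple epithelia that also appears in basal cells of oral lining mucosa. It had 28.3, 25.4 and 24.4 FPKM with vehicle and 40.0, 40.9 and 37.5 FPKM with CBD. The groups were well apart, with a CBD mean of 1.52 times the vehicle mean, and here vehicle replicate 1 was the highest of its group.

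The difference of KRT19 was 0.58 ± 0.067 (SE; 95% interval 0.42 to 0.74; limma adjusted p = 0.0452). Without vehicle replicate 1 it was 0.64 (limma adjusted p = 0.0440) and without vehicle replicate 2 it was 0.57 (0.0209). The call did not hold by limma without vehicle replicate 3 (adjusted p = 0.167), CBD replicate 1 (0.160), CBD replicate 2 (0.198) or CBD replicate 3 (0.177), although the difference was then 0.54 to 0.62. With the trend in GC content removed it was 0.42 (adjusted p = 0.0963).

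KRT8 and KRT18 are the classical pair of simple epithelia. KRT8, of type II, had 56.4, 65.1 and 62.9 FPKM with vehicle and 69.8, 70.5 and 67.7 with CBD, a difference of 0.17 ± 0.062 (limma adjusted p = 0.120). KRT18, of type I, had 39.6, 38.7 and 37.5 FPKM with vehicle and 34.6, 31.7 and 34.1 with CBD, a difference of -0.20 ± 0.052 (limma adjusted p = 0.0763). In neither gene did the groups overlap, and the partners lay in opposite directions. Their transcripts are similar in GC content, 57.7% for KRT8 and 57.3% for KRT18.

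With the GC trend removed KRT8 was at 0.053 and KRT18 at -0.31 (limma adjusted p = 0.0852). The genes lie head to head on chromosome 12, KRT8 from 52897187 to 52949954 on the minus strand and KRT18 from 52948871 to 52952901 on the plus strand, and share 525 exonic bases. Reads from the shared stretch cannot be assigned without strand information, and the strand setting is not given in the sources used here.

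KRT7, a type II keratin of simple and glandular epithelia, had 106, 102 and 97.8 FPKM with vehicle and 112, 100.1 and 99.5 FPKM with CBD. These values overlapped, and the difference was 0.031 with a 95% interval from -0.12 to 0.18. It overlaps the antisense gene KRT7-AS by 282 exonic bases, a gene with a mean of 4.10 FPKM.

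Wound-associated keratins did not all lie on the same side of 0. The type I members, KRT16 and KRT17, lay higher with CBD, whereas KRT6A and KRT6B, of type II, lay lower and KRT6C varied too much to give a direction. KRT16 had 97.5, 133 and 116 FPKM with vehicle and 148, 161 and 150.4 with CBD, apart in every library and with vehicle replicate 1 lowest. Its difference was 0.42 ± 0.11 (limma adjusted p = 0.0763).

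KRT17, the keratin next in abundance after KRT5 and KRT14, had 2223, 2784 and 2594 FPKM with vehicle and 2879, 2926 and 2749 with CBD. CBD replicate 3 lay below vehicle replicate 2, and the difference of 0.18 had an interval from -0.041 to 0.39. With the GC trend removed it was 0.00048, that is, close to 0.

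KRT6A, the main type II keratin of this class, had 1361, 1371 and 1324 FPKM with vehicle and 1241, 1312 and 1315 with CBD. The groups were just apart, by 1315 against 1324, and the difference of -0.069 had an interval from -0.20 to 0.059. KRT6B had 23.5, 25.3 and 22.6 FPKM with vehicle and 20.4, 21.7 and 19.1 with CBD. Its groups did not overlap either, and its difference was -0.21 ± 0.065 (limma adjusted p = 0.0933), or -0.31 (0.0852) with the GC trend removed.

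KRT6C ranged from 4.50 to 10.6 FPKM with vehicle and from 4.80 to 11.8 with CBD, an interval of -0.67 to 0.96 around a difference of 0.14. That wide spread within each group came in a gene with 286 to 789 fragments per library, and KRT6C also had the largest share of sequence in common with other genes (24.7%). Whether the division of reads among the KRT6 copies plays a part in that spread was not tested.

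Of the 10 suprabasal keratins only KRT10 and KRT9 reached the tested level. KRT10, the type I keratin of differentiating epidermis, had 5.18, 4.97 and 5.40 FPKM with vehicle and 8.11, 8.91 and 5.92 with CBD, a difference of 0.47 ± 0.13 (limma adjusted p = 0.0811). The groups did not overlap, and CBD replicate 3 was much nearer to the vehicle libraries than the other CBD libraries were. KRT10 shares 56 exonic bases with TMEM99 on the opposite strand (mean 4.11 FPKM). Its epidermal partner KRT1 had 0, 3 and 1 fragments with vehicle and 4, 4 and 3 with CBD.

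KRT9, known from the skin of palms and soles, had 0.898, 1.09 and 1.62 FPKM with vehicle and 1.78, 1.36 and 1.21 with CBD, overlapping values with a difference of 0.16 ± 0.15. Of the mucosal pair, KRT4 had 0 fragments in every library and KRT13 at most 5. Of the 10 suprabasal genes 3 had no fragment at all and 3 more had at most 3 in any library, whose limit on the level is 0.135 to 0.165 FPKM for a gene of 1 kb (3 fragments, counting error only). Differences among them were not detectable at this depth.

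Hair keratins were absent from the test, as none of the 26 reached a mean of 1 FPKM. No fragment was found for 12 of them and at most 3 in any library for 7 more. KRT75, a type II keratin of the companion layer of the hair follicle, was the exception with a mean just below the tested level. It had 42, 54 and 55 fragments with vehicle and 24, 26 and 16 with CBD, or 1.02 ± 0.211 and 0.417 ± 0.0762 FPKM (SD, n = 3).

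The groups of KRT75 were apart, with a CBD mean of 0.409 times the vehicle mean. An exact permutation test, two-sided, gave p = 0.1, the smallest that 3 against 3 libraries allow. In the fit without a filter on low values its limma adjusted p was 0.167. Next came KRT74, with 2, 3 and 4 fragments with vehicle and 4, 13 and 8 with CBD, overlapping at 4. KRT86, KRT84, KRT82, KRT34 and KRT81 had at most 8 fragments in any library.

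Of the 6 genes outside the classes, KRT80 had 0.775, 1.13 and 1.07 FPKM with vehicle and 0.944, 0.944 and 0.969 with CBD, overlapping values just below the tested level. In KRT23, KRT77 and KRT79 there was no fragment in any library, and KRT222 and KRT24 had at most 3. In all, 19 of the 55 keratin genes had no fragment in any library, 12 had between 1 and 3 in their highest library, 10 had more without reaching the tested level and 14 were tested.

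**Figure D2:**
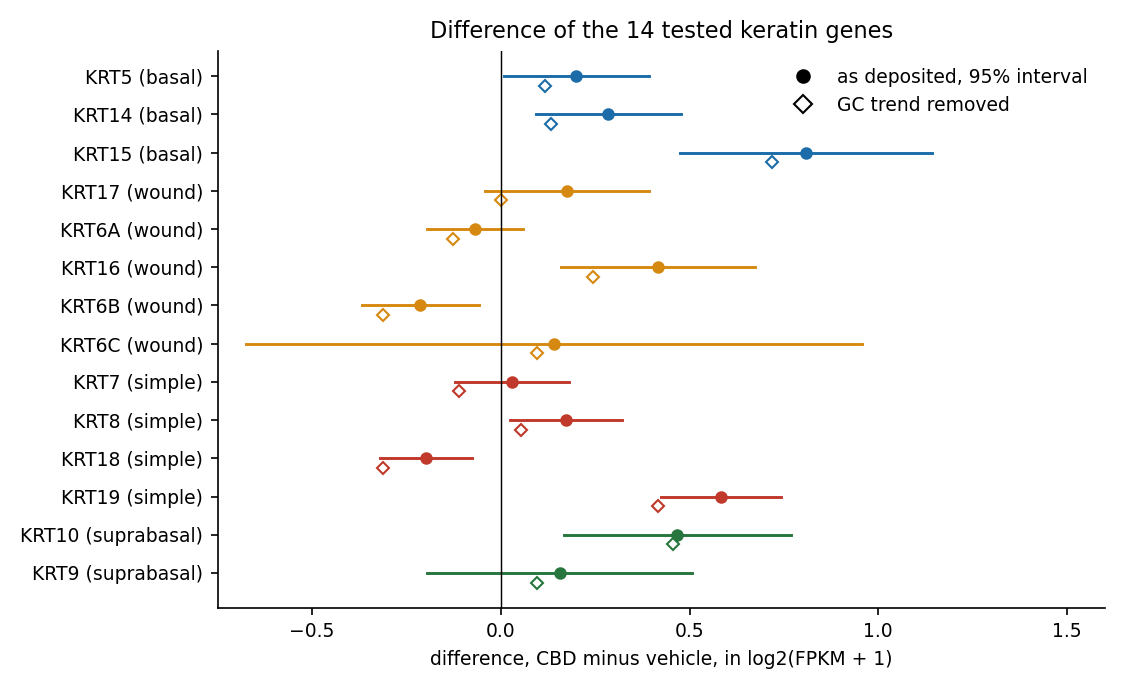
Difference between CBD and vehicle on the log2(FPKM + 1) scale for the 14 tested keratins, by class: filled circles with 95% limma intervals (n = 3 against 3) from the values as deposited, open diamonds after removal of the trend in GC content. KRT15 lies highest at 0.81, KRT19 follows at 0.58, and KRT6B, KRT18 and KRT6A lie below 0. Every diamond lies to the left of its circle, with KRT17 close to 0.

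By type, most tested keratins of both kinds lay above 0 in the values as deposited. Of the 8 tested type I genes 7 lay above 0, with a median difference of 0.35, and of the 6 type II genes 4 did, with a median of 0.086. With the GC trend removed, the type II genes KRT5, KRT8 and KRT6C were at 0.12, 0.053 and 0.094. KRT7, KRT6A and KRT6B were then at -0.11, -0.13 and -0.31. KRT18 remained the only type I gene below 0, and KRT17 was at 0.00048. Summed over all genes, the ratio of type II to type I FPKM was 0.871, 0.798 and 0.832 with vehicle and 0.756, 0.767 and 0.778 with CBD, and every CBD library lay below every vehicle library. The summed ratio is given for the values as deposited only. No test was made of sums or ratios, since they are scores over chosen members.

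Ratios within each library put the partners side by side without regard to depth. KRT5 to KRT14 was 1.08 ± 0.0187 with vehicle and 1.02 ± 0.00594 with CBD (SD, n = 3), a log2 shift of -0.084 that was -0.016 with the GC trend removed. KRT8 to KRT18 was 1.43, 1.68 and 1.68 with vehicle and 2.02, 2.22 and 1.98 with CBD, a log2 shift of 0.38 that was 0.37 with the GC trend removed. KRT8 and KRT18 are nearly equal in GC content (57.7% and 57.3%), so removal of a GC trend could hardly change their ratio. The like shift in both scalings is therefore no separate check.

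KRT7 to KRT19 was 3.74, 3.998 and 4.01 with vehicle and 2.81, 2.45 and 2.65 with CBD, a log2 shift of -0.57, or -0.54 with the GC trend removed. KRT6A to KRT16 was 13.96, 10.3 and 11.4 with vehicle and 8.37, 8.15 and 8.74 with CBD, and KRT5 to KRT15 was 886, 624 and 792 with vehicle and 457, 433 and 458 with CBD. The log2 shift was -0.50 for KRT6A to KRT16 and -0.77 for KRT5 to KRT15, or -0.38 and -0.75 with the GC trend removed. KRT5 and KRT15 are also close in GC content (55.6% and 56.0%), so that step could change their ratio little. In all of the pairs named here the CBD libraries did not overlap the vehicle libraries. These pairs were chosen, and no share over other gene pairs is given. Of single tested genes, 18.7% lay wholly higher and 21.9% wholly lower with CBD.

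**Figure D3:**
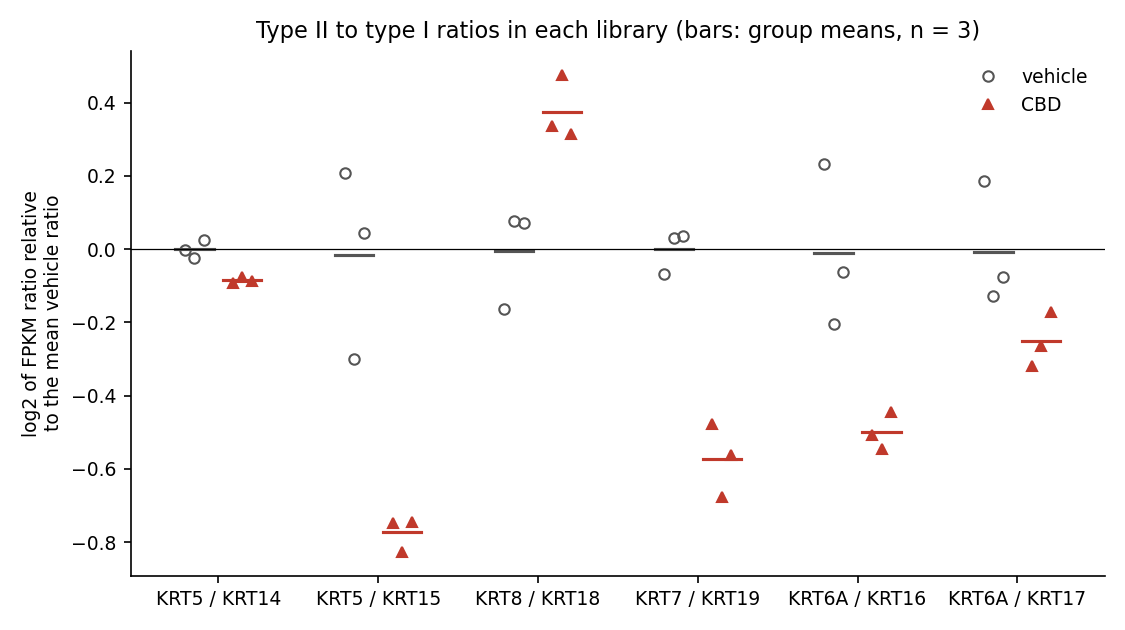
Ratio of type II to type I FPKM for 6 keratin pairs in each vehicle library (open circles) and CBD library (triangles), as log2 relative to the mean vehicle ratio, with bars at the group means (n = 3). KRT8 to KRT18 lies above the vehicle libraries and the other 5 ratios below them, with KRT5 to KRT14 shifted least.

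By class, basal keratins made up 57.5% to 59.1% of keratin FPKM with vehicle and 60.5% to 60.7% with CBD, and wound-associated keratins 38.6% to 39.9% and 37.0% to 37.3%. Simple keratins were 2.11% to 2.47% and 2.04% to 2.21%, and suprabasal keratins 0.0564% to 0.0675% and 0.0641% to 0.0870%. The basal and wound shares did not overlap between groups, while the simple and suprabasal shares did. The basal share was thus higher and the wound-associated share lower in each CBD library. As these classes make up nearly all keratin FPKM, a rise in one share goes with a fall in the other. The shares are given for the values as deposited only. The log2 ratio of summed FPKM was 0.24 for basal and 0.10 for wound-associated keratins, or 0.16 and 0.044 without vehicle replicate 1. With the GC trend removed it was 0.12 for basal keratins and -0.035, on the other side of 0, for wound-associated keratins.

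The position of the genes was not used in choosing them. KRT15 (41513743 to 41522529) and KRT19 (41523617 to 41528308), which had the largest and second largest differences of the 14 as deposited, are direct neighbours on chromosome 17, on the same strand and 1087 bases apart. They share 73.2% of their aligned coding bases and no 100-base word. KRT9, KRT14, KRT16 and KRT17 follow in the same cluster with differences of 0.16, 0.28, 0.42 and 0.18. In KRT9 and KRT17 the groups overlapped, and KRT17 was at 0.00048 with the GC trend removed. In that scaling KRT15 was at 0.72, KRT10 at 0.46 and KRT19 at 0.42, so KRT19 ranked behind KRT10. KRT10 lies 691 kb from KRT15, with 15 other keratin genes between them. On chromosome 12 the neighbours KRT6B, KRT6C, KRT6A and KRT5 had -0.21, 0.14, -0.069 and 0.20. Neighbours with unlike values, such as KRT8 and KRT18, were thus found as well as neighbours with like ones.

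The tested keratins were richer in GC than most genes, from 51.3% to 60.7% with a median of 56.9%, against 48.9% for all tested genes. Across genes, which do not count as independent replicates, the CBD difference was larger at higher transcript GC content (Spearman 0.67 over 12510 genes). The 2271 tested genes with 55% to 61% GC had a median difference of 0.12, and all 14 keratins had 0.17. These sets are not fully matched, as KRT10, KRT6C, KRT6A and KRT9 lie below 55% GC. With the trend removed from each library, KRT15 was at 0.72, KRT10 at 0.46, KRT19 at 0.42, KRT16 at 0.24, KRT14 at 0.13 and KRT5 at 0.12, and none of the 14 passed an adjusted p under 0.05 by limma, whereas 6 had an unadjusted p under 0.05. The part of GC-dependent yield in the keratin differences beyond this correction was not tested.

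**Figure D4:**
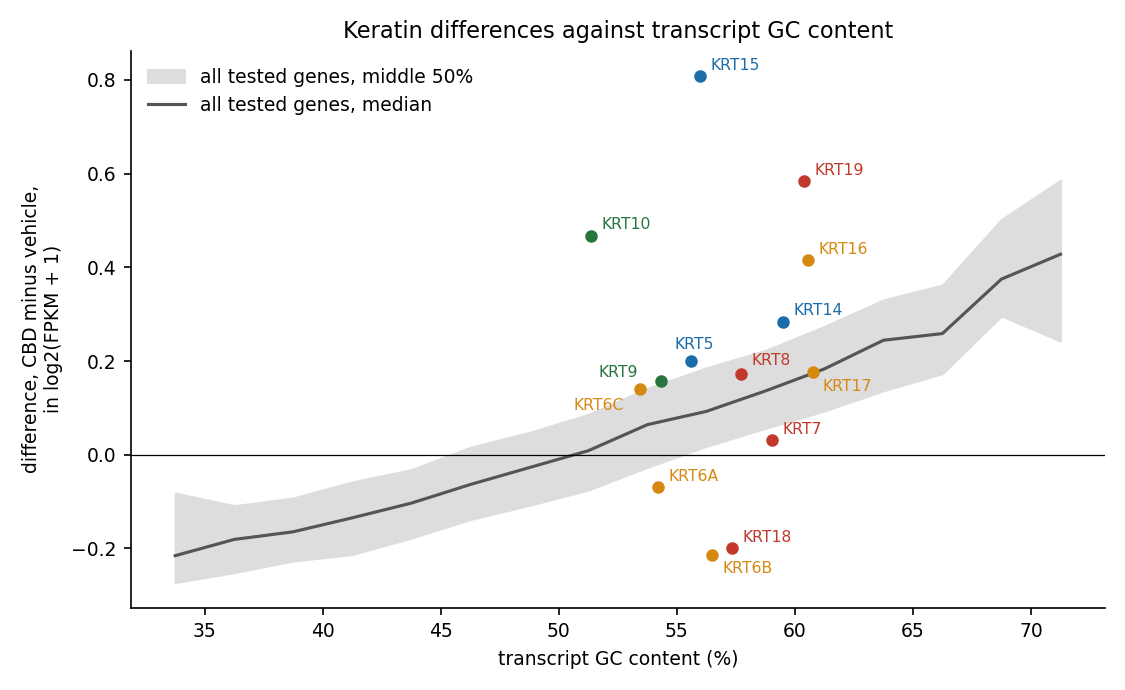
Difference between CBD and vehicle in log2(FPKM + 1) against transcript GC content in percent, with the 14 tested keratins as points coloured by class and the median (line) and middle 50% (band) of all tested genes in GC bins of 2.5 points. KRT15, KRT19, KRT10 and KRT16 lie farthest above the band, KRT14, KRT5 and KRT9 just above its bin, KRT18, KRT6B, KRT6A and KRT7 below it, and KRT17 close to the line.

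More keratins passed under some other settings, as did more genes of every kind. With limma-voom on the fragments recovered from the FPKM values, KRT19, KRT15, KRT16, KRT14 and KRT10 were higher and KRT18 lower at an adjusted p under 0.05, where 7.26% of all tested genes were higher and 6.68% lower. With only genes of at least 5 FPKM tested, KRT19, KRT15 and KRT16 of 13 keratins were called, all higher, against 10.1% of the genes in either direction. Without vehicle replicate 2, KRT14, KRT15, KRT16 and KRT19 were called, against 18.8% of all genes. The direction of each of these genes was that of the deposited values.

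Keratin pseudogenes and hair keratin-associated proteins were read from the same table. Of 147 keratin pseudogenes 90 had no fragment, and all together held 1171 to 1701 fragments per library. Copies of KRT16 led: KRT16P6 had 12.9, 16.4 and 16.0 FPKM with vehicle and 17.9, 19.9 and 22.2 with CBD (difference 0.39; limma adjusted p = 0.0846). KRT16P5 had 9.64, 12.6 and 14.1 FPKM with vehicle and 18.4, 16.1 and 19.9 with CBD (difference 0.56; limma adjusted p = 0.0702). Both lay in the direction of KRT16 itself, and KRT16P5 shares 100-base words with KRT14, whereas neither shares one with KRT16. Of 94 keratin-associated protein genes, which build the hair shaft matrix, 85 had no fragment and none had more than 3 in any library.

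Among genes that hold keratin filaments in place or control them, few passed the test. Of 13 filament linkers, all tested, 0 were called, with 10 above 0 and a median of 0.29, where 0.256% of all tested genes were called higher and 0.0959% lower. JUP, EVPL, PLEC, FAM83H, EPPK1 and PKP3 have 61.9% to 68.8% GC, and the median difference of all tested genes was 0.18 in the GC bin that starts at 60% and 0.37 in the bin that starts at 67.5%. EPPK1, which encodes epiplakin, a keratin-binding cytolinker, had 3.64 ± 0.215 FPKM with vehicle and 5.06 ± 0.135 with CBD (limma adjusted p = 0.0502), a difference of 0.39 at 68.5% GC, close to the median of its bin. For PPL, which encodes periplakin of the cornified envelope and desmosome, the values were 28.0 ± 2.68 and 37.1 ± 0.232 FPKM (0.0557). DST, which encodes the hemidesmosome linker dystonin, was lower with CBD, at 31.5 ± 0.441 against 38.4 ± 2.15 FPKM (0.0574). PPL and DST differed by 0.40 and -0.28 at 59.6% and 41.6% GC, where the bin medians were 0.14 and -0.13. The 5 filament-bundling genes, filaggrin's FLG among them, were all below 1 FPKM.

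Of 22 transcription factors that act on keratin genes, 17 were tested and 1 was called, KLF4, an epithelial differentiation factor, at 12.8 ± 0.413 FPKM with vehicle and 16.6 ± 0.404 with CBD, a difference of 0.36 (limma adjusted p = 0.0452). The share called among all tested genes was 0.256% higher and 0.0959% lower. The KLF4 call cannot have held in every alternative, because some of them called 0 of all genes. That was so with low values left in and with replicate number as a block. It was also so on leaving out the third vehicle library, or either the first or the second library given CBD. Whether KLF4 was called in the remaining alternatives is not given here. CEBPA, a factor of keratinocyte differentiation, had 1.45 ± 0.323 and 2.76 ± 0.106 FPKM (limma adjusted p = 0.0547). KLF4 and CEBPA differed by 0.36 and 0.63 at 55.1% and 65.9% GC, where the bin medians were 0.092 and 0.26. The basal regulator TP63 had 57.9 ± 2.06 and 61.2 ± 1.41 FPKM (limma adjusted p = 0.288). Among 17 other intermediate filament genes 10 were tested and 0 called by limma, against those same shares. LMNA, which encodes nuclear lamins A and C, had 74.4 ± 8.44 and 89.9 ± 2.89 FPKM (0.0916), LMNB2 76.8 ± 7.501 and 89.7 ± 3.75 (0.112), and IFFO2 5.53 ± 0.770 and 6.33 ± 0.101 (0.211). Their differences were 0.27, 0.23 and 0.17 at 61.7%, 63.0% and 57.2% GC. The median difference of all tested genes in their GC bins was 0.18, 0.24 and 0.092. Vimentin (VIM), the filament of mesenchymal cells, stood at 1.71 ± 0.495 and 1.37 ± 0.072 FPKM.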

How the data were processed

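A single table of FPKM per gene and library was used, with 3 CBD and 3 vehicle columns matched to sample titles. Per the file headers the values were deposited by the authors as FPKM, 1 column per library. HISAT2 2.0.5 (aligner) and featureCounts 1.5.0-p3 (counter) are listed, per the submitters' processing notes. Build, annotation, strand setting and filters are not given in the sources used here. All 58735 gene IDs were found in GENCODE 29. Fragment numbers were recovered from FPKM with its exon-union lengths and a scale for each library; 100% of values came out whole (tolerance 0.01). Transcript GC content is the GC share of all annotated transcript bases of a gene.

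A filter of mean FPKM at least 1 left 12517 genes, whose log2(FPKM + 1) values were fitted with limma 3.58.1 in R 4.3.3, group as the only term, a variance trend, two-sided, and Benjamini-Hochberg adjustment over all tested genes at 0.05. The GC trend was a loess curve (span 0.3) per library. Alternatives numbered 16. The code was tested on simulated data. The keratin genes, classes and partner lists were chosen with earlier results of these data known. Named were all tested keratins, others with more than 3 fragments, and, per partner list, called genes and up to 3 with the smallest adjusted p. One gene that this rule names is not reported here. TP63 and VIM were added after their values were seen. Coding sequences come from GENCODE 29. Python 3.11.15 served for tables.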

Additional observations from a re-analysis of the deposited data

How the results depend on the processing

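Directions were stable for most keratins and calls were not. Of the 14 tested keratins, KRT5, KRT14, KRT17, KRT6A, KRT16, KRT8, KRT18, KRT19, KRT6B, KRT10, KRT15 and KRT9 kept their sign in every alternative run that tested them, and KRT7 and KRT6C did not. Runs that changed only the filter, the variance trend or the replicate block leave each difference as it was, so the sign there was fixed beforehand. KRT17 kept its sign only barely with the GC trend removed, at 0.00048, and KRT9 was tested in 15 alternatives. KRT7 turned to -0.025 with quantile normalization, -0.11 with the GC trend removed and, without CBD replicate 1, to -0.026, its values without each library ranging from -0.026 to 0.061. KRT6C ranged from -0.14 to 0.43 without each library, with -0.11 without vehicle replicate 2 and -0.14 without CBD replicate 2. KRT19 was called in 7 of 16 alternatives (adjusted p 0.00372 to 0.198), with an unadjusted p under 0.05 in all 16. The number of keratins called was 1 as fitted, 0 without a filter on low values, 3 at a mean of at least 5 FPKM, 0 after rescaling to the same sum, 2 with quantile normalization, 0 without a variance trend, 6 with limma-voom, 0 with the GC trend removed, and 0 to 4 without each library. All genes called numbered 44 as fitted (32 higher, 12 lower), and in the same order 0 of 31746 (4670 at an unadjusted p under 0.05), 732, 4 (2 higher, 2 lower), 73, 1, 1745, 5 and 0 to 2351, with 73 after median-ratio scaling. The count of 2351 came without vehicle replicate 2; without vehicle replicate 1 it was 81. Leaving out the third vehicle library, or the first or second CBD library, gave 0 (2943, 2594 and 2454 at an unadjusted p under 0.05), and 1 was called without CBD replicate 3. The cause was not tested.

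With the GC trend removed, the log2 ratio of summed FPKM went from 0.11 to -0.026 for simple keratins and from 0.10 to -0.035 for wound-associated keratins. Replicate numbers are shared between the groups, but same-numbered libraries deviated together little if at all (correlations -0.0027, 0.0524 and 0.0235). Vehicle replicate 1 correlated best with CBD replicate 3 (0.0282), whereas vehicle replicates 2 and 3 correlated best with the CBD library of their own number. All of these correlations were close to 0. The fit with the replicate block called 0 keratins and 0 of all genes, with 3676 genes at an unadjusted p under 0.05, and the samples were taken as sharing only a number. Depth limits the hair and suprabasal keratins, most of which had 3 fragments or fewer.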
